A study of Danio rerio with 4 samples.

Results

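The cytosolic chaperonin CCT, also called TRiC, is built from 8 different subunits, and the transcripts of these 8 genes were followed in the livers of fasting zebrafish larvae treated with lipofermata or with its solvent. The genes were chosen by name: tcp1, cct2, cct3, cct4, cct5, cct6a, cct7 and cct8 among the 32058 rows of the count table. All 8 were found and all 8 had enough counts to be tested. The name cct2 stood on 2 Ensembl identifiers, and the one with more counts (ENSDARG00000104674) was taken as the member, with the other (ENSDARG00000087206) given beside it.

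CCT is a barrel of stacked rings in which each of the subunits occupies a fixed place. Newly made proteins enter the cavity, ATP hydrolysis closes a lid over them, and they are released folded. Actin and tubulin are its best known clients, together with many proteins with WD40 repeats, among them activators of the anaphase-promoting complex and G protein beta subunits. Because the barrel needs every one of its subunits, the question asked of these data is whether the transcripts of the 8 genes moved together under lipofermata.

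Both groups were larvae of genotype AB, 6 dpf old and kept without exogenous food during treatment. From 4 dpf the medium held either 5 μM lipofermata, an inhibitor of the fatty acid transporter encoded by slc27a2a, or the vehicle DMSO, for 48 h. Each group had 2 replicates, and each replicate was RNA from the pooled livers of 30 larvae. The sources used here do not say whether replicates came from separate clutches, so that the spread between them may be technical. The count table also has a row for an EGFP reporter, with counts in all 4 libraries, which the genotype label does not name.

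The libraries held 14997821 to 19368695 counts. Levels are given as CPM, counts scaled to a common library size with edgeR's TMM factors and not divided by transcript length, and genes were called at an adjusted p under 0.1 in edgeR, by its quasi-likelihood F test over 14925 genes. No exact permutation of 2 against 2 libraries reaches a two-sided p under 0.333, so that every p rests on the spread that the model shares across genes. Over all genes tested, 2479 were called higher and 2527 lower. Markers of hepatocytes were abundant in every library (summed level 115289 and 140637 CPM with DMSO, 84634 and 85298 CPM with lipofermata), with 7 of 14 tested genes called lower. Of the other marker lists, 13 of 15 endothelial genes were called lower (841 to 947 CPM in sum with DMSO, 250 to 260 CPM with lipofermata) and 14 of 14 proliferation genes higher (155 to 183 CPM with DMSO, 389 to 481 CPM with lipofermata). Macrophage markers summed to 95.03 and 25.7 CPM with DMSO and to 29.1 and 32.7 CPM with lipofermata. Of 9 tested, 4 were called lower and 0 higher, though the sum in DMSO replicate 2 was below both lipofermata sums. Markers of pancreas and intestine, with fabp6 at 0, stood at 3050 and 7019.6 CPM with DMSO and at 7922 and 3662 CPM with lipofermata in replicates 1 and 2. Markers of muscle and red cells, with tnnt3a at 0, summed to 17.4 to 36.1 CPM. Fewer cells of a type and less RNA per cell cannot be told apart in these pooled livers, and the part of the changes in cell makeup in the results on the subunits was not tested.

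Of the 8 subunits, 1 was called higher with lipofermata, cct3, against a background of 16.6% of all genes tested, so that the count itself is near the background. No subunit was called lower by edgeR, DESeq2 or limma voom (0 also at an unadjusted p under 0.05), against a background of 16.9%. The median log2 fold change of the 8 subunits was 0.14, beside -0.03 for all genes tested, and single subunits ranged from -0.12 to 0.65. Values above 0 were found for 7 of 8 subunits, beside 7231 of 14925 genes tested. These include cct6a (0.02), cct7 (0.00023) and cct8 (0.09), whose groups overlapped. The summed level of the 8 transcripts was 1709 and 1748 CPM in the DMSO libraries, and 1908 and 1904 CPM in the lipofermata libraries.

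The gene cct3 (ENSDARG00000016173) encodes the gamma subunit. It stood at 155 and 134 CPM with DMSO, and at 232 and 223 CPM with lipofermata. Both treated libraries lay well above both vehicle libraries, and the gap between the groups was wider than that between the replicates of either. The mean rose from 145 ± 15.3 to 228 ± 6.26 CPM (SD, n = 2), or by 0.65 on the log2 scale (standard error 0.15, 95% interval 0.33 to 0.98, adjusted p = 0.0097 in edgeR). The call was lost without lipofermata replicate 1, where the log2 fold change was little changed at 0.63 but its standard error was 0.25. Over the alternatives that kept all 4 libraries, the adjusted p from edgeR, DESeq2 and limma voom ranged from 0.00056 (no filter) to 0.010 (filter at 0.5 CPM).

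**Figure D1:**
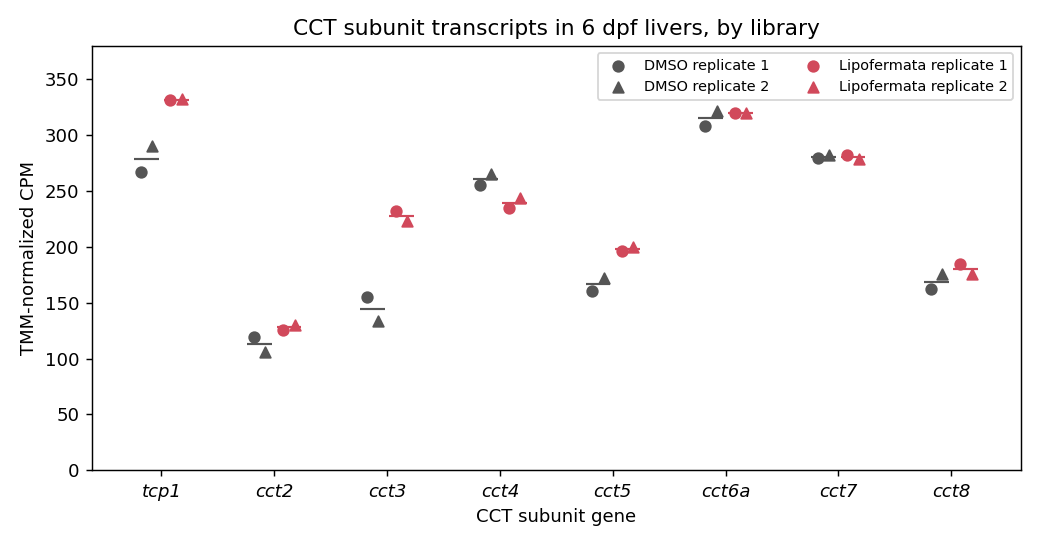
TMM-normalized CPM (y axis, from 0) of the 8 CCT subunit genes (x axis) in each library, with circles for replicate 1, triangles for replicate 2, grey for DMSO and red for lipofermata, and a line at each group mean. The red points of cct3 lie at 232 and 223 CPM above grey points at 155 and 134 CPM, whereas those of cct6a, cct7 and cct8 overlap the grey ones.

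The tcp1 gene (ENSDARG00000017891) encodes the alpha subunit, first named for the t-complex of the mouse. Its level was 267 and 291 CPM with DMSO, and 332 and 332 CPM with lipofermata. The groups did not overlap, but the difference of 0.25 on the log2 scale (standard error 0.14) did not pass in edgeR (adjusted p = 0.23). The epsilon subunit cct5 (ENSDARG00000045399), whose human counterpart is mutated in a hereditary sensory neuropathy, was at 161 and 172 CPM with DMSO and at 197 and 200 CPM with lipofermata. It too had its groups apart, with a log2 fold change of 0.25 (standard error 0.14) that did not pass the test (adjusted p = 0.21).

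The beta subunit cct2 was represented by 1300 to 2514 counts per library. Its level was 120 and 106 CPM with DMSO, and 126 and 130 CPM with lipofermata. The treated libraries were both higher, and the vehicle libraries differed by 0.17 on the log2 scale. The log2 fold change of 0.18 (standard error 0.14) was of about that size and did not pass in edgeR (adjusted p = 0.39). It was 0.28 without DMSO replicate 1 and 0.10 without DMSO replicate 2. The other identifier named cct2 had 161 to 351 counts per library, and differed by 0.35 on the log2 scale (standard error 0.22, adjusted p = 0.28). Between 87.1% and 90.9% of the reads counted to either identifier fell on the first, so that the split between them could be uncertain where the copies are alike. With the counts of both added, a choice made after the values were seen, the median of the 8 subunits was 0.15 and cct3 remained the 1 subunit called.

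The delta subunit cct4 (ENSDARG00000013475), whose rat counterpart carries the mutation of the mutilated-foot strain, was the only one lower in both treated libraries. Its level was 256 and 266 CPM with DMSO, and 235 and 244 CPM with lipofermata. The groups lay apart by a margin of about the size of the replicate spread, and the log2 fold change was -0.12 (standard error 0.14, adjusted p = 0.56), a direction that turned to 0.27 when counts were scaled by library totals alone.

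The remaining subunits overlapped between the groups. The eta subunit cct7 (ENSDARG00000007385) had 279 and 282 CPM with DMSO, and 283 and 279 CPM with lipofermata. This is a log2 fold change of 0.00023, with a 95% interval in fold of 0.807 to 1.24. The zeta subunit cct6a (ENSDARG00000021252) had 308 and 322 CPM with DMSO, and 320 and 320 CPM with lipofermata (log2 fold change 0.02, standard error 0.14). The theta subunit cct8 (ENSDARG00000008243), which raises the amount of assembled chaperonin when overexpressed in Caenorhabditis elegans, had 162 and 176 CPM with DMSO, and 185 and 176 CPM with lipofermata (log2 fold change 0.09, standard error 0.14). Its log2 fold change was 0.05 without DMSO replicate 1, 0.15 without DMSO replicate 2 and 0.06 without lipofermata replicate 1.

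In terms of separation between libraries, 4 of 8 subunits (tcp1, cct2, cct3 and cct5) were higher in both lipofermata libraries than in both DMSO libraries, against 32.2% of all genes tested, and 1 of 8 (cct4) was lower in both, against 32.9%. For the 7 subunits not called, the 95% intervals of the fold ran from 0.74 at the lowest bound to 1.48 at the highest.

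**Figure D2:**
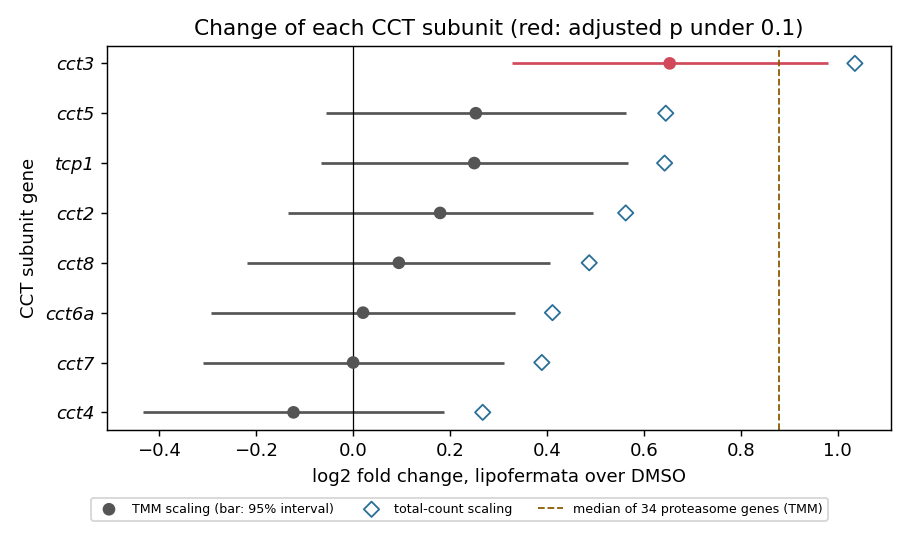
Log2 fold change of each subunit (x axis, lipofermata over DMSO), as dots with 95% intervals under TMM scaling and as open diamonds under total-count scaling, with the median of 34 proteasome genes as a dashed line. Only the interval of cct3, 0.33 to 0.98, lies above 0 and reaches the dashed line at 0.88.

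The number of subunits called depended on the scaling. When counts were scaled by library totals alone, the median over all genes shifted by 0.39 on the log2 scale, and 5092 genes were called higher and 1182 lower. Under this scaling 7 of 8 subunits were called higher, against a background of 34.1%, and cct4 (0.27, adjusted p = 0.16) was the exception. Relative to the median of all genes, the median subunit stood at 0.16 under either scaling. This was fixed in advance, because a change of scaling shifts every gene by nearly the same amount. The share of all counts that fell on the 8 genes was 0.159% and 0.143% with DMSO and 0.22% and 0.216% with lipofermata.

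**Figure D3:**
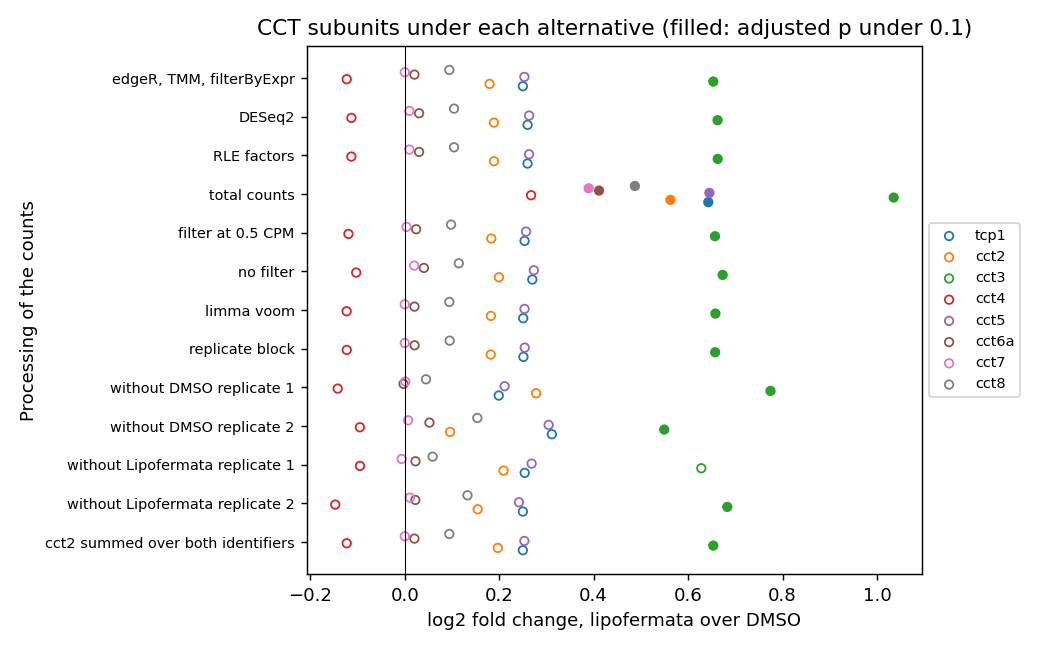
Log2 fold change of each subunit (x axis) under each processing of the counts (y axis), with filled points where the adjusted p was under 0.1. The 8 subunits shift to the right by about 0.39 with total counts, and cct3 is the highest in each line, at 0.77 without DMSO replicate 1 and 0.55 without DMSO replicate 2.

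Coordination was then examined as the makeup of the ring's transcripts, that is, the share of each subunit in the summed counts of the 8 genes of a library. Counts were not divided by transcript length, so that these shares compare libraries and not subunits. The share of cct3 was 9.10% and 7.65% with DMSO, and 12.2% and 11.7% with lipofermata. That of cct4 was 15.0% and 15.2% with DMSO, and 12.3% and 12.8% with lipofermata. Shares sum to a whole, so that a gain by one subunit takes from the rest. The shares of cct6a (18.0% and 18.4%, then 16.8% and 16.8%) and cct7 (16.3% and 16.1%, then 14.8% and 14.7%) were lower in both treated libraries, and those of tcp1 (15.6% and 16.6%, then 17.4% and 17.4%) and cct5 (9.40% and 9.85%, then 10.3% and 10.5%) higher. Those of cct2 and cct8 overlapped between the groups.

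**Figure D4:**
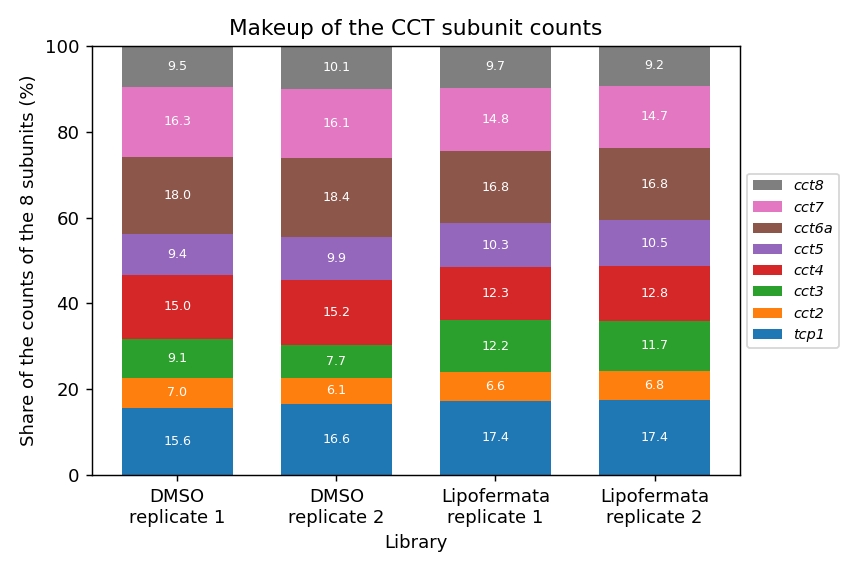
Share of each subunit in the summed counts of the 8 genes (y axis, percent) for each of the 4 libraries (x axis). The band of cct3 widens from 7.65% and 9.10% with DMSO to 11.7% and 12.2% with lipofermata, and that of cct4 narrows from about 15.0% to 12.3% and 12.8%.

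To put these shifts on the log2 scale, the model was refitted over all genes with the counts of the 8 genes as library sizes. This scaling was added after the values were seen. It shifts every gene by nearly the same amount, and the subunits set the scale they are measured on. The fit thus largely restates the main fit and is no separate test of the shares. Relative to the ring, cct3 rose by 0.51 on the log2 scale (standard error 0.15, 95% interval 0.18 to 0.84, adjusted p = 0.029 in edgeR), and 1 of 8 subunits was called, against 35.2% of all genes in either direction. This call was lost without lipofermata replicate 1 and without lipofermata replicate 2, where the relative change was little altered at 0.48 and 0.54. For cct4 the relative change was -0.26 (standard error 0.14, 95% interval -0.57 to 0.04, adjusted p = 0.18). The other subunits had relative changes from -0.14 (cct7) to 0.11 (cct5), and none passed. Across the 8 genes the log2 fold changes had an SD of 0.24, beside 0.29 over the 34 proteasome genes and 0.96 over all genes tested. The last value includes genes of few counts, and no comparison with genes of matched level was made. Without cct3, left out after its value was seen, the SD of the subunits was 0.14. The standard error of a single subunit, 0.14, was of the same size. That error hardly varies between subunits and is not an estimate from their own replicates. The match therefore cannot decide whether the subunits other than cct3 moved alike.

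In yeast, the subunits that correspond to tcp1, cct2, cct4 and cct5 form the side of the ring that binds and hydrolyzes ATP most readily, and cct3, cct6a, cct7 and cct8 the opposite side. On the first side the log2 fold changes were 0.25, 0.18, -0.12 and 0.25, and on the second 0.65, 0.02, 0.00023 and 0.09. The highest value lay on the second side and the lowest on the first, and the values of the sides overlapped. The neighbours of cct3 in the assembled ring, tcp1 and cct6a, had 0.25 and 0.02.

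Replicates were close for the subunits in the lipofermata group, where none differed by more than 0.08 on the log2 scale. Between the DMSO libraries, cct3 and cct2 were higher in replicate 1, by 0.22 and 0.17, and the other 6 subunits lower, by -0.12 (tcp1) to -0.01 (cct7). Proteasome genes were higher in the same library, 32 of 34 of them with a median of 0.29, beside 0.0036 for all genes tested. This was not particular to them. Actins and tubulins (15 of 18, median 0.30), prefoldin-like and R2TP genes (7 of 7, 0.27) and endothelial markers (13 of 15, 0.19) were higher there too. Macrophage markers were higher there by more (9 of 9, median 1.55). Other lists were lower there, such as hepatocyte markers (1 of 14 higher, median -0.25) and tubulin folding cofactors (1 of 6 higher, -0.21).

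The profiles of the subunits were also set beside the rest of the table, by the Euclidean distance between log2 CPM values centred on each gene's mean over the 4 libraries. Among 4431 genes with a mean of at least 20 CPM outside the ring, those nearest to the mean profile of the 8 subunits were aclya, which encodes ATP citrate lyase (distance 0.027), the integrin gene itgb1b (0.035), the lysosomal membrane protein gene laptm4a (0.037), plekha1a (0.037), baz2a (0.038) and hmgcrb, which encodes an HMG-CoA reductase (0.044). Their log2 fold changes ran from 0.13 (plekha1a) to 0.20 (hmgcrb), and none was called. Each subunit enters the mean itself, which brings it nearer. Of the 4431 genes, 150 were closer to the mean than the nearest subunit, cct5 (0.11), and cct3 was farthest (0.52). Set among these genes, cct5 ranked 151, tcp1 171, cct8 178, cct2 254, cct6a 332 and cct7 420. The ranks of cct4 and cct3 were 1256 and 2603. In a comparison added after the values were seen, cct3 lay at a distance of 0.24 from the mean of the proteasome genes. Its distance from the mean of the other 7 subunits was 0.59. The other subunits lay at 0.70 (cct5) to 1.04 (cct4) from the proteasome mean and at 0.13 (cct5) to 0.34 (cct4) from the mean of their own ring. Such distances largely restate the fold changes, by which cct3 already stood apart. How many genes outside both lists lay as near to the proteasome mean was not counted.

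Prefoldin is a complex that hands unfolded actin and tubulin to CCT. Of its 6 genes, pfdn4 (log2 fold change 0.47), pfdn6 (0.64) and pfdn2 (0.43) were called higher, and vbp1 (-0.41), pfdn1 (0.18) and pfdn5 (0.03) did not pass. The list was thus at 3 of 6 beside the background of 16.6%, with a median of 0.30. DESeq2 called 0 of these genes, where 12.7% of all genes were called higher. In edgeR the calls were lost without either lipofermata replicate, where fewer of all genes were called too. Some were also lost without DMSO replicate 2, where pfdn2 had 0.26.

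Among the related R2TP and prefoldin-like proteins, which assemble large complexes, the paired ATPase genes ruvbl1 (from 7.87 and 6.70 to 16.6 and 14.9 CPM) and ruvbl2 (from 6.99 and 5.72 to 11.6 and 10.2 CPM) rose, by 1.11 and 0.77 on the log2 scale. The call on ruvbl2 was lost without lipofermata replicate 1 (0.68, adjusted p = 0.22 in edgeR). The other 5 genes did not pass, with uri1 at 0.34, pdrg1 at 0.13, uxt at 0.08, rpap3 at 0.01 and pih1d1 at -0.17. Called higher were thus 2 of 7, beside the background of 16.6%.

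Cochaperones of the phosducin-like family bind CCT and aid the folding of G protein beta subunits and cytoskeletal clients. Of those listed, pdcl (0.07) and txndc9 (-0.18) did not pass, and pdcl3 was not found under that name. Of the 6 genes for tubulin folding, which receive tubulin after CCT, tbcb had 0.48 and was called higher, a call lost without either lipofermata replicate and without DMSO replicate 2, where it had 0.27 (0.75 without DMSO replicate 1). The others were tbce (0.43), tbca (0.09), tbcc (0.04), tbcd (-0.15) and arl2 (-0.36). The list was thus at 1 of 6 called higher, near the background of 16.6%. The chaperonin-like Bardet-Biedl genes were near the limit of detection, with 16 to 38 counts per library for bbs10 (log2 fold change -1.03) and 8 to 26 for bbs12 (-0.38), neither called. The third, mkks, had 2 to 8 counts and was not tested.

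The mitochondrial chaperonin, a ring of another lineage made from the product of hspd1 with a lid encoded by hspe1, stood at higher values. The level of hspd1 was 266 and 279 CPM with DMSO, and 396 and 395 CPM with lipofermata. The log2 fold change was 0.54 (standard error 0.14, adjusted p = 0.020 in edgeR), and the call was lost without either lipofermata replicate. For hspe1 the log2 fold change of 0.36 did not pass (adjusted p = 0.11), though it did with DESeq2 (adjusted p = 0.098) and limma voom (adjusted p = 0.082).

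**Figure D5:**
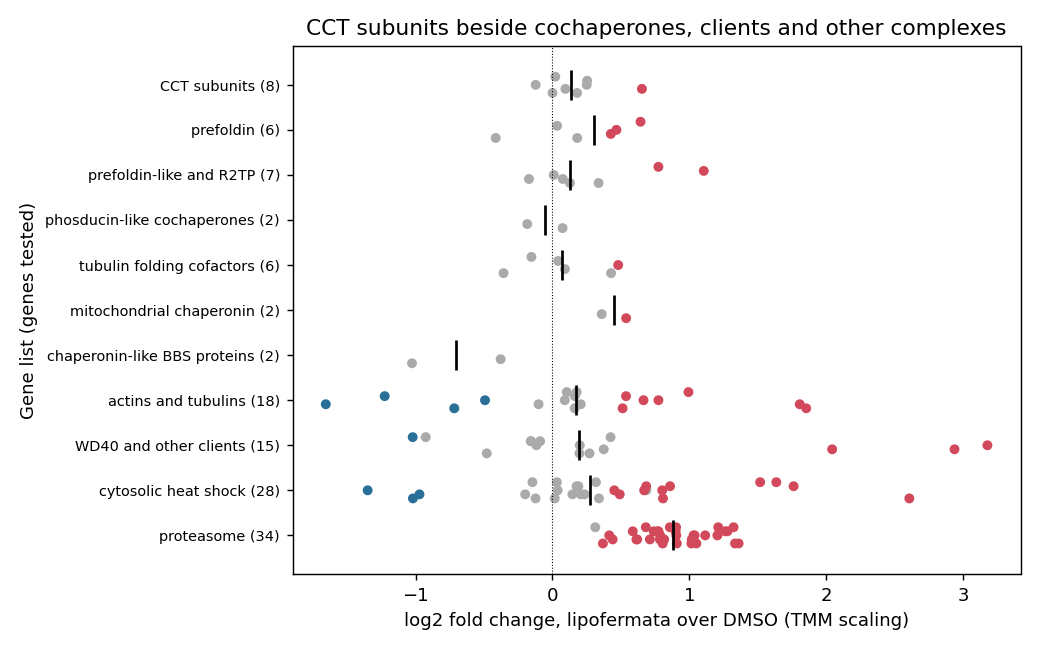
Log2 fold change (x axis) of each tested gene of the CCT subunits, their cochaperones and clients, heat shock genes and the proteasome (y axis, with the number tested), red where called higher, blue where called lower and grey where not called, with a bar at each median. The CCT subunits centre on 0.14 with cct3 alone in red, and the proteasome genes on 0.88 with 33 of 34 in red.

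Of 18 tested actins, actin-related genes and tubulins, which include the best known clients, 7 were called higher and 4 lower, beside 16.6% and 16.9% of all genes. Without lipofermata replicate 1 the counts were 4 and 2, where 7.24% of all genes were called higher. With total counts they were 12 and 1, where 34.1% of all genes were called higher. The cytoplasmic actin gene actb1 had 714 and 542 CPM with DMSO and 876 and 915 CPM with lipofermata, a log2 fold change of 0.51 that was called (adjusted p = 0.050), with 0.33 without DMSO replicate 2, and lost without either lipofermata replicate. Its relative actb2 had -0.10 and was not called, and with total counts it had 0.28 and was called. Rises were found in actr1 (0.77), actr2b (0.99) and tuba1b (1.81, and 2.91 without DMSO replicate 1). The level of tuba1b was low, at 2.55 and 0.817 CPM with DMSO and 6.90 and 5.42 CPM with lipofermata. The 24 listed genes found summed to 6261 and 5723 CPM with DMSO and to 5964 and 6092 CPM with lipofermata, mostly actb2. The alpha tubulin genes tuba8l3 (-1.66), tuba8l2 (-0.72), tuba7l (-1.23) and tuba2 (-0.49) were called lower. The last 3 lost the call with total counts (tuba8l2 at -0.32), and each did so without at least 1 library. The tubulins tuba8l (0.18) and tuba8l4 (0.09) did not pass. Members of the tubulin family share long stretches of sequence, so that reads could be split between them.

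Of 15 tested WD40 proteins and other clients, 3 were called higher, near the background of 16.6%, and 1 lower, against 16.9%. With total counts 8 were called higher, where 34.1% of all genes were, and 0 lower. Those higher were cdc20 (3.18), an activator of the anaphase-promoting complex, the mitotic kinase plk1 (2.04) and the cyclin gene ccne2 (2.94). All of these belong to the cell cycle, and plk1 is also among the proliferation genes. With DMSO, cdc20 had 18 and 6 counts and ccne2 had 8 and 18, near the limit of detection. Not every cell cycle gene of the list rose, as the cyclin gene ccne1 (-0.48) and the activator gene fzr1a (-0.16) were not called. The one lower was fzr1b (-1.02), another such activator, which did not pass without DMSO replicate 2 (-0.61) or without either lipofermata replicate, nor with total counts.

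Heat shock factor 1, which activates chaperone genes under stress, had a log2 fold change of -0.15 in its gene hsf1, which was not called, and hsf2 fell by 1.02 from 77.9 and 80.0 to 36.8 and 41.1 CPM (-0.63 with total counts). Of 28 tested cytosolic heat shock genes, 11 were called higher and 3 lower, beside 16.6% and 16.9% of all genes, with a median of 0.28. With total counts 18 were called higher, where 34.1% of all genes were, and 1 lower. Those with the smallest p among the higher were the Hsp110 gene hspa4a (1.76), hsp90aa1.2 (2.61) and the Hsp90 cochaperone gene ptges3b (1.52). The most abundant genes of the list, hspa8 (0.02) and hsp90ab1 (-0.20), were not called. The 32 listed genes summed to 12690 and 13804 CPM with DMSO, and to 12594 and 13213 CPM with lipofermata. Those called lower besides hsf2 were dnajb1b (-1.35, and -0.51 without DMSO replicate 1) and the small heat shock protein gene hspb1 (-0.97, and -0.60 without lipofermata replicate 1). Neither passed without those libraries. Without lipofermata replicate 1 the list had 6 genes called higher, where 7.24% of all genes were, and without lipofermata replicate 2 it had 7, where 8.50% of all genes were.

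The proteasome, another obligate complex of many subunits and the endpoint for proteins that fail to fold, was set beside the ring. Of 34 tested genes 33 were called higher, against 16.6% of all genes, and 0 lower, by edgeR and limma voom, beside 32 and 0 by DESeq2, and the median log2 fold change stood at 0.88. Without lipofermata replicate 1, 26 were called higher, where 7.24% of all genes were. With total counts 34 of 34 were called higher, beside 7 of 8 CCT subunits and 34.1% of all genes. The alpha-ring gene psma4 had 25.5 and 25.8 CPM with DMSO and 65.7 and 58.7 CPM with lipofermata (log2 fold change 1.28). The catalytic subunit gene psmb5 (1.2) and the lid gene psmd12 (1.33) were of similar size, and the one gene not called, psmd4a, had 0.31. Of these genes, 30 had a log2 fold change above the upper bound of the 95% interval of each of the 7 uncalled CCT subunits. This count leaves out cct3 because it was called, a choice that rests on the values themselves. The upper bound of cct3, 0.98, lay above the proteasome median. No test of one list against the other was made.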

How the data were processed

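RNA-seq of zebrafish livers gave 4 libraries, 2 per group. The deposited values are raw counts per gene, which the authors made by aligning reads to GRCz11 with HISAT2 and counting with featureCounts, as the submitters' processing notes name them. Versions, annotation release and use of strand were not given in the sources used here. Genes passing edgeR's filterByExpr (minimum count 10) were fitted with edgeR 4.0.16 in R 4.3.3, with TMM (trimmed mean of M-values) factors and treatment as the only term, and p-values were adjusted over all genes by the Benjamini-Hochberg method. The threshold of 0.1 follows the study's methods. Standard errors are the log2 fold change divided by the square root of F. The alternatives were DESeq2 1.42.0 (size factors), limma 3.58.1 (voom), DESeq2-type factors or total counts in edgeR, a filter at 0.5 CPM or none, the replicate number as a block, and each library left out. Figures were drawn with matplotlib 3.10.9. The edgeR, DESeq2 and voom fits were tested on simulated data, with the same dispersion for every gene and few changed genes, balanced between higher and lower. These data were not built to hold the shift between TMM and total-count scaling, so that they do not bear on that choice.

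The members and the 17 lists (225 genes, 7 not found in the file) were chosen with earlier results of these data known. A name on several identifiers stands for the one with most counts. Lists of up to 7 genes are named in full. For others the 3 genes of smallest p in each direction, the factors hsf1 and hsf2, and the tuba and actb genes are named, and the rest are counted. The genes psmd4a, hspa8 and hsp90ab1 were chosen after their values were seen. Sequences and coordinates were not used here.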

Additional observations from a re-analysis of the deposited data

How the results depend on the processing

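The median log2 fold change of the CCT subunits kept its direction under all alternatives run, and moved from 0.14 to 0.52 with total counts. The number of subunits called higher was 7 with total counts, 0 to 1 when a library was left out (0 without lipofermata replicate 1), and 1 under the remaining settings. The number changed relative to the ring was 0 to 1 when a library was left out (0 without either lipofermata replicate). With the replicate number as a term (replicate block), 1 subunit was called, cct3 at 0.66. The numbers are not stated to pair the libraries, and replicate differences of the groups had a correlation of 0.054 across genes. Among genes named above, the block added vbp1 (-0.41), uri1 and hspe1 to those called. It raised the clients called higher from 3 to 5 and the heat shock genes from 11 to 14. Over all genes the share called higher was 18.5% with the block and 16.6% without it.

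Total counts reversed cct4 (0.27), pih1d1 (0.21), txndc9 (0.21), tbcd (0.23), arl2 (0.036), bbs12 (0.047), actb2 (0.28) and hsf1 (0.24), of which actb2 was called. Limma voom reversed bbs12 (0.084), and the replicate block tbcc (-0.012). With a library left out, values that crossed 0 ranged from -0.0024 to 0.052 for cct6a, -0.0064 to 0.011 for cct7, -0.31 to 0.013 for pih1d1, -0.58 to 0.46 for tbcc, -0.13 to 0.23 for pfdn5, -0.072 to 0.40 for pdrg1, -1.15 to 1.09 for bbs12, -0.015 to 0.21 for tuba8l4, -0.0076 to 0.16 for uxt and -0.15 to 0.16 for rpap3. None of the last group was called in any of these fits. Where 1 library is left in a group, it is assumed to vary like the others. Counting error is small at 1300 or more counts per subunit and library. The standard errors were nearly the same for all subunits, from 0.14 (cct5) to 0.15 (cct3) in the main fit. They rest on the spread that the model shares across genes, and do not measure the replicate spread of each subunit.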
